A study of Glycine max with 12 samples.

Results

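Myo-inositol-1-phosphate synthase (MIPS) was followed in soybean leaves under 3 stress treatments on a spotted cDNA array. Of the 5760 spots on the array, 253 carried a gene symbol in the platform's probe table, and 1 of these, clone AI941146 (Entrez gene 547604), carried the symbol MIPS. All values below come from this spot. Leaves treated with tunicamycin (TUN, 10 µg/ml for 24 h) were compared with leaves given DMSO, and leaves treated with L-azetidine-2-carboxylic acid (AZC, 50 mM for 16 h) or polyethylene glycol (PEG, 10% w/v for 16 h) were compared with leaves given water. The shoots had been cut off below the cotyledons and stood in each solution. Each treatment had 2 biological replicates, and each replicate was hybridized as a dye-swap pair, once with the treated RNA in Cy5 and once in Cy3, which gave 12 hybridizations and 6 biological values. TUN differed from AZC and PEG in duration and in control agent, so agent, time and solvent cannot be told apart between them. The paper describes the 2 biological replicates as independent. Neither it nor the labels say whether they were separate pools of plants. The p-values therefore measure the spread between these samples, which limma combined with that of other spots.

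MIPS converts glucose 6-phosphate to inositol 1-phosphate and is the committed step of inositol synthesis. Inositol made this way feeds phosphatidylinositol and the phosphoinositide signals cut from it, phytate, the galactinol used to build raffinose-type sugars and, by oxidation to glucuronic acid, cell-wall sugars. Plants hold several MIPS genes of very similar sequence, and a spotted cDNA can hybridize with the RNA of more than one of them. Which family members contributed to the signal was not tested. TUN blocks N-glycosylation and AZC replaces proline in new proteins, so both load the endoplasmic reticulum (ER) with misfolded protein, whereas PEG withdraws water.

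The scanner files of PEG replicate 1 were exchanged before any ratio was formed. Set against the authors' table, each of these files matched the column of its dye-swap partner (absolute r of 0.979 and 0.977) and much less its own column (0.499 and 0.482), whereas the other 10 files correlated with their own at 0.953 or above. The position of the spots on the slide showed the same exchange. In the other 5 pairs the MIPS spot lay between 41895 and 42118 µm down the slide with the treated RNA in Cy5 and between 12825 and 13115 µm with it in Cy3, and in PEG replicate 1 the files as listed lay at 13050 and 42050 µm. With the files as listed, MIPS under PEG came to -0.12 on the log2 scale (limma, adjusted p = 0.999) in place of the value given below. The PEG value computed from the scanner files therefore rests on the exchange. The authors' own ratios, used without any exchange, gave -1.20 under PEG (limma, adjusted p = 0.000159). The TUN and AZC ratios were the same with the files as listed, but their SE, which is pooled over the 3 treatments, rose from 0.13 to 0.58 and neither passed (limma, adjusted p = 0.761 and 0.419). With each treatment fitted by itself, so that no PEG ratio entered the TUN or AZC model, the adjusted p by limma was 0.0255 for TUN and 4.51e-05 for AZC. One further hybridization stood apart: the Cy5-treated array of PEG replicate 2 used another spot-finding method and had wide local backgrounds, so that 44.7% of its Cy5 spots exceeded background against 96.9% or more of the Cy5 spots elsewhere.

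MIPS transcript was lower in treated than in control leaves in all 12 hybridizations and under each of the 3 agents. The level fell to 37.5% of control under AZC, to 40.1% under PEG and to 56.6% under TUN. In bulk leaf RNA, fewer cells of a type and less RNA per cell cannot be told apart.

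Raw intensities in the treated channel lay between 540 and 5167 units and those in the control channel between 1042 and 16862 units, from 5.11 to 60.6 times the local background, and no pixel was saturated. Of the 24 channel readings, 23 exceeded the local background by more than 2 standard deviations of that background. The exception was the treated channel of the PEG hybridization with wide backgrounds, where MIPS read 2085 units against a local background of 265 with an SD of 3010.

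Under TUN, replicate 1 gave a normalized intensity of 3441 in treated leaves against 5987 in the control with the treated RNA in Cy5, and 3103 against 4541 in the swap. Replicate 2 gave 777.9 against 1962, and 1051 against 1590 in the swap. The treated channel was the dimmer on all 4 arrays. The corresponding log2 ratios of treated over control were -0.80 and -0.55 in replicate 1 and -1.33 and -0.60 in replicate 2. The other 3 values lay within a narrower band than the lowest, which came from replicate 2 with treated RNA in Cy5. No other array was quantified on the same day as that array. Across the treatments, no array with the treated RNA in Cy5 shared a day with those in Cy3. Dye orientation and day of quantification can therefore not be told apart. The 2 orientations of replicate 2 were 0.74 apart, more than in any other pair, and 17.2% of all spots differed by more in that pair.

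Under AZC, replicate 1 read 799.7 in treated leaves against 2826 in the control, and 832.5 against 2320 in the swap. Replicate 2 was dimmer, with 330.2 against 717.9, and 428.9 against 1017 in the swap. The log2 ratios were -1.82 and -1.48 in replicate 1 and -1.12 and -1.25 in replicate 2, so that both orientations of replicate 1 lay below both of replicate 2. The replicate means, -1.65 and -1.18, were 0.47 apart, and 14.2% of the spots tested under AZC had a larger gap between replicates.

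Under PEG, the control channel read 7340 and 6401 in replicate 1 and 8481 and 6898 in replicate 2, each time with the treated RNA in Cy5 first. The treated channel on the same arrays read 3453, 2577, 3504 and 2272. The log2 ratios were -1.09 and -1.31 in replicate 1 and -1.28 and -1.60 in replicate 2. These 4 values had the narrowest range of the 3 treatments, and the replicate means were -1.20 and -1.44.

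**Figure D1:**
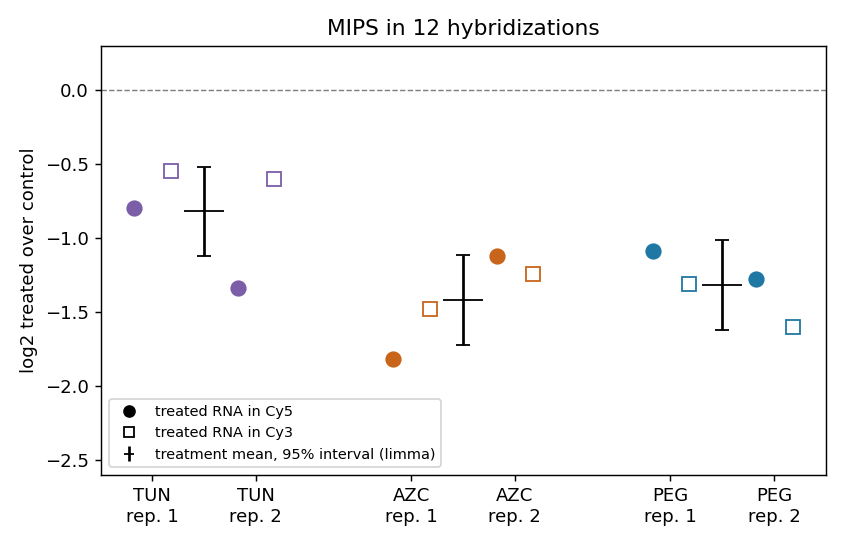
Log2 ratio of treated over control for MIPS in each hybridization, by treatment and biological replicate. Filled circles are arrays with the treated RNA in Cy5, open squares the dye swaps, and bars the limma mean of 2 replicates with its 95% interval. All 12 points lie below 0, between -1.82 and -0.55.

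**Figure D2:**
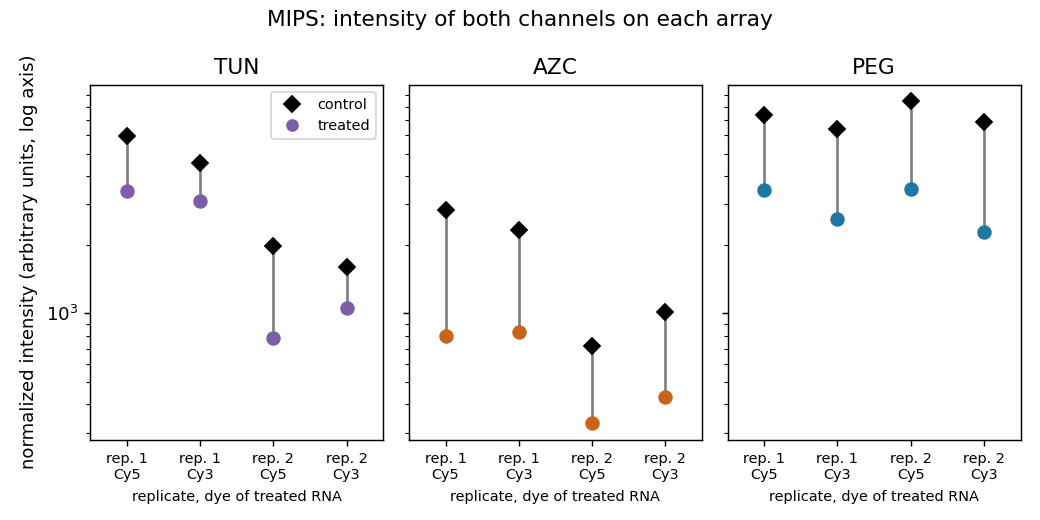
Normalized intensity of MIPS in both channels of each array, on a log axis. Black diamonds are control leaves and coloured circles treated leaves, joined by a line for each array. The control lies above the treated leaves on all 12 arrays, and levels on different arrays were not put on a common scale.

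Normalization for dye mattered for this spot. Before it, the background-subtracted intensities gave log2 ratios from -3.16 to 0.32, and 10 of 12 lay below 0. The raw ratios averaged -1.79 with the treated RNA in Cy5 and -0.29 with it in Cy3. After loess normalization the same averages were -1.24 and -1.13.

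With the PEG files exchanged, all 3 decreases passed the limma test on the replicate means with Benjamini-Hochberg adjustment over all spots. Under TUN the log2 ratio was -0.82 ± 0.13 (SE, n = 2), a 1.77-fold decrease with a 95% interval of 1.43 to 2.18-fold and an adjusted p of 0.00528 by limma. At the same threshold, 2.75% of the spots tested under TUN were lower. Under AZC the log2 ratio was -1.42 ± 0.13 (SE, n = 2), a 2.67-fold decrease with an interval of 2.16 to 3.3-fold (limma, adjusted p = 0.000109), where 5.12% of the spots were lower. Under PEG it was -1.32 ± 0.13 (SE, n = 2), a 2.5-fold decrease with an interval of 2.02 to 3.08-fold (limma, adjusted p = 0.000212), where 7.02% were lower. The SE is shared because the spread was estimated over all 6 replicate values, and limma then moderated it towards that of spots of similar intensity. Of its 9.2 degrees of freedom, 6.2 came from the other spots. The SD of the MIPS replicate means was 0.21 under TUN, 0.33 under AZC and 0.17 under PEG (n = 2 each). The TUN call was lost when only the arrays with the treated RNA in Cy3 were used, at -0.57 (limma, adjusted p = 0.0645); all 6 of those arrays were quantified on 1 day, and within that day AZC gave -1.36 and PEG -1.46, both still called.

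MIPS lay in the low tail of each distribution without being at its end. Its ratio ranked 125 from the lowest of 4905 spots tested under TUN, 89 of 5023 under AZC and 102 of 4345 under PEG, so that 2.55%, 1.77% and 2.35% of the spots, respectively, were at or below it. The median ratio over all tested spots lay between -0.006 and 0.0061. By single replicate, between 1.83% and 3.93% of the spots were at or below MIPS.

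**Figure D3:**
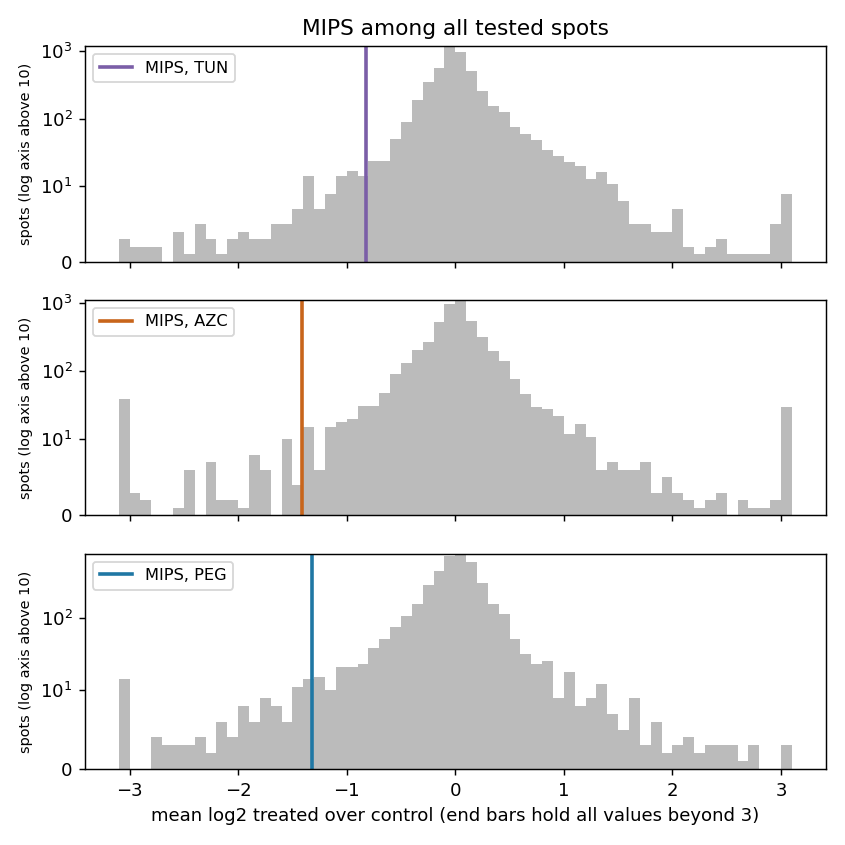
Number of tested spots by mean log2 ratio of treated over control for TUN, AZC and PEG, with MIPS as a coloured line. MIPS stands at -0.82, -1.42 and -1.32, in the lowest 2.55%, 1.77% and 2.35% of the spots.

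Of the 3523 spots tested under all 3 agents, 71 (2.02%) were called lower under each of them, and MIPS was 1 of these. The AZC and PEG controls were both water, and the labels do not say whether they were the same plants. Among the 71 spots this MIPS spot was one of the less strongly lowered: 61 fell further under TUN, 47 under AZC and 52 under PEG. The medians of the 71 were -1.46, -2.45 and -1.84. The rank is that of this spot and not of MIPS as a whole. The paper already lists this clone as lowered by all 3 treatments, with equal decreases under AZC and PEG and a smaller decrease under TUN. It also lists another clone described as MIPS, not analysed here, with larger decreases than this spot under every treatment. For that clone the paper's decrease under TUN was not the smallest. Of the 71, 8 had a gene symbol. Besides MIPS these were 3 spots of granule-bound starch synthase, which builds amylose, and single spots of GS-2 (a glutamine synthetase, which assimilates ammonium), FAD3A (a microsomal omega-3 fatty acid desaturase), SHOOT1 and LOC547819, a light-harvesting chlorophyll a/b-binding protein.

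The order of the decreases at this spot was AZC, PEG and then TUN, and no neighbours in it passed the test of their difference. The ratio under AZC was lower than that under TUN by 0.60 ± 0.19 on the log2 scale (SE; 95% interval of AZC minus TUN -1.03 to -0.17; limma, adjusted p = 0.239), a comparison in which 2.08% of spots were called different. The ratio under PEG was lower than that under TUN by 0.50 ± 0.19 (interval of PEG minus TUN -0.93 to -0.07; limma, adjusted p = 0.212), where 5.61% were called. PEG minus AZC was 0.10 ± 0.19 (interval -0.33 to 0.53; limma, adjusted p = 0.883), where 5.96% were called. The intervals of the differences from TUN leave out 0 before adjustment over all spots and the tests do not pass after it. The PEG and AZC ratios could differ by up to 0.53 in one direction or 0.33 in the other.

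On the inositol side of the pathway, 1 other named spot was found, a phospholipase C (LOC547865, AI794656), the family that cuts phosphatidylinositol bisphosphate to inositol trisphosphate and diacylglycerol. Its ratios were 2.43 and 2.36 in the 2 replicates under PEG, 0.63 and 0.53 under AZC and 0.28 and -0.72 under TUN. It rose under PEG, at 2.40 ± 0.23 (SE, n = 2; limma, adjusted p = 0.000158), while MIPS fell on the same arrays. It passed the test neither under AZC, at 0.58 (limma, adjusted p = 0.206), nor under TUN, at -0.22 (limma, adjusted p = 0.728). With the scanner files of PEG replicate 1 as listed, its PEG value was -0.03.

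Glucose 6-phosphate, the substrate of MIPS, is also drawn on for starch. The 4 named spots of this branch were all clones of granule-bound starch synthase (LOC100037476), so they are 4 readings of 1 gene or of close relatives. Under TUN 3 of the 3 tested were lower, and under AZC and PEG 4 of 4, where 2.75%, 5.12% and 7.02% of all tested spots were lower. Their median log2 ratios were -1.38, -2.57 and -1.97. The clones differed widely among themselves: AI940891 gave -0.65 under TUN, -0.87 under AZC and -1.23 under PEG, whereas AW472193 gave -3.12, -5.10 and -3.44. AW508018 gave -1.38, -1.56 and -0.98, and AW472190 gave -3.58 under AZC and -2.71 under PEG and was not tested under TUN. MIPS lay inside the range of these clones under all 3 agents.

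Cell-wall sugar supply was represented by USP1, a UDP-sugar pyrophosphorylase, and wall loosening by EXP1, an expansin. Neither passed the test under any agent. USP1 gave 0.07, 0.06 and 0.22 under TUN, AZC and PEG, and EXP1 gave -0.04, 0.06 and 0.04. No spot of the osmolyte list (sucrose, proline, trehalose, betaine and sorbitol) carried a gene symbol in the probe table. Nor did any spot for raffinose-type sugars, which belonged to the inositol list.

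Some of the named leaf transcripts of photosynthesis were also lowered. Of the named spots, 1 of 3 tested was lower under TUN, 2 of 3 under AZC and 3 of 4 under PEG, against the same 2.75%, 5.12% and 7.02% of all tested spots. LOC547819, the chlorophyll a/b-binding protein, was lowest at -3.58, -5.35 and -5.24 under TUN, AZC and PEG. Clones of LOC732655 differed under AZC, at -4.82 (AW567734) and -0.01 (AW508802). The paper lists many other photosynthesis clones, not among the named spots read here, as lowered by all 3 treatments. The photosystem I subunit PSAD gave 0.09 under TUN and 0.38 under PEG and passed neither test (limma, adjusted p = 0.767 and 0.0627). The control channel of each of the 4 photosynthesis spots exceeded background on all 4 arrays of every treatment. Outside PEG replicate 2, 96.9% or more of the Cy5 spots did so too, so this does not show that leaf markers were present. The array was made from seed cDNAs, and 6 spots named for seed storage proteins or the Kunitz inhibitor were read as well. Their signal also exceeded background, on 3 or 4 of 4 control arrays, and their log2 ratios lay between -0.62 and 0.24. None of the 4 tested passed under TUN, 1 of 6 was lower under AZC (CG-1, AI941229) and 1 of 6 under PEG (GY4, AW508958), against 5.12% and 7.02% of all tested spots. The part of either marker list in the MIPS decrease was not tested.

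The genes that mark each stress moved with their agents on the same arrays. Of the BiP and calnexin spots, chaperones of the ER, 5 of 6 tested rose under TUN and 6 of 7 under AZC, with medians of 4.67 and 4.80, and 5 of 6 fell under PEG, with a median of -1.40. Over all tested spots, 4.51% were higher under TUN, 3.98% under AZC and 4.58% under PEG, and 7.02% were lower under PEG. Of the PM30 and PM34 spots, dehydration-related seed maturation proteins, 2 of 2 tested rose under PEG, at 4.79 for PM30 and 3.25 for PM34 (AI735868). The control channel exceeded background on 2 of 4 PEG arrays for PM30 and on 3 of 4 for PM34, so the sizes of these ratios are uncertain. MIPS thus fell both where BiP rose and where it fell.

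Among the 158 other named spots measured in all 6 replicates, those nearest to MIPS were ranked by the root mean square difference of their log2 ratios over the 6 replicates. Nearest was the granule-bound starch synthase clone AI940891, at a distance of 0.38 and a Pearson r with MIPS of 0.65 over the 6 values. GS-2 followed at 0.39 with an r of 0.18, then SODB (AI959792), an iron superoxide dismutase, at 0.49 with an r of 0.93. The fourth was the starch synthase clone AW508018 at 0.55 with an r of 0.00, and the fifth LOC547884 (AW102551), listed as a metal ion binding protein, at 0.60 with an r of 0.94. Distance and correlation picked out different likeness. GS-2 lay within 0.68 of MIPS in every replicate but was about as low under TUN as under AZC, at -0.94 and -1.44 against -0.97 and -1.47. SODB nearly followed the order of the replicates of MIPS but stood higher in 5 of the 6, at 0.05 and -0.60 under TUN. The median distance over the 158 spots was 1.25. These correlations rest on 6 values that share arrays and are descriptions only.

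**Figure D4:**
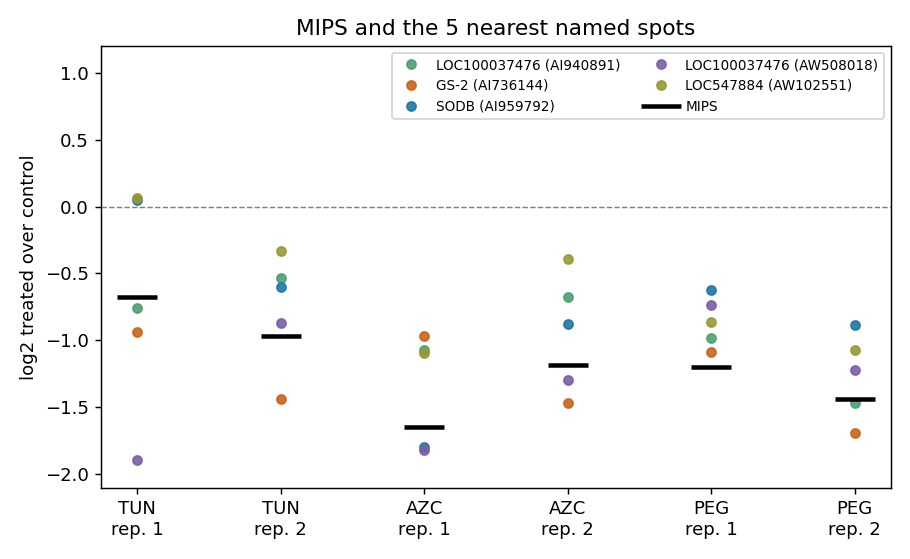
Log2 ratio of treated over control in each biological replicate for MIPS (black bars) and the 5 named spots with the smallest root mean square difference from it (coloured points). The distances run from 0.38 to 0.60, and SODB and LOC547884 stand above MIPS in TUN replicate 1, at 0.05 and 0.06 against -0.67.

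**Figure D5:**
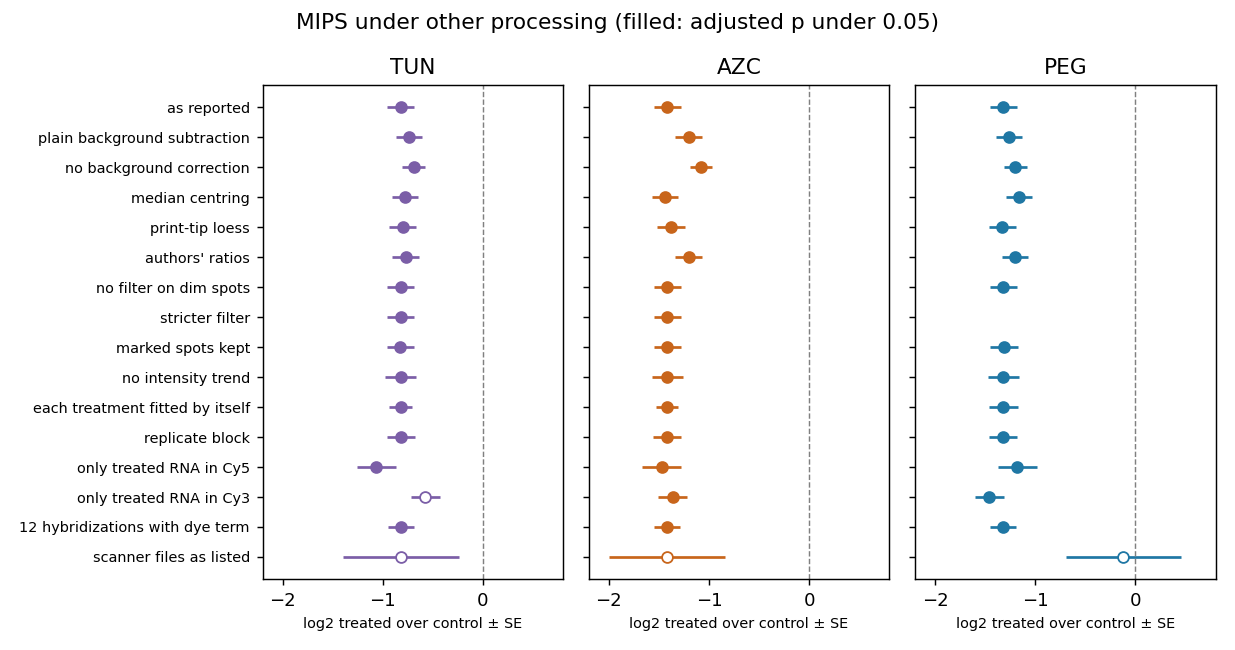
Log2 ratio of treated over control for MIPS with its SE, as reported and with other processing, for TUN, AZC and PEG. Filled points have an adjusted p under 0.05 and open points do not; all lie below 0, and PEG with the scanner files as listed is the nearest to 0, at -0.12.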

How the data were processed

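RNA of soybean leaves was hybridized in 2 colours. Per the paper's methods, the array held cDNAs of developing-seed libraries and the plants were 3 weeks old. The deposited scanner files gave spot intensity and local background in Cy3 and Cy5, the percent of saturated pixels, as deposited by the authors, and other fields (spot marks and positions). The authors' table held log2 ratios after LOWESS in Genespring and was used as an alternative and to check which file belongs to which sample.

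Intensities were background-corrected with normexp (offset 50) and normalized by loess within each array in limma 3.58.1 under R 4.3.3. Spots with marks 1 or 4 were left out. Ratios were turned to treated over control and each dye-swap pair averaged. Spots were tested if the foreground exceeded the background median by 2 SD on at least 3 of 4 hybridizations in any RNA group. The 6 values entered 1 limma fit with an intensity trend and Benjamini-Hochberg adjustment over all tested spots; a call is an adjusted p under 0.05. The fit was tested on simulated data with independent noise and no array, dye or day effects, so that test does not cover such effects. The number of arrays limits the precision. Between 25 and 979 spots per array were marked. Replicates of a treatment correlated across tested spots at 0.681 (TUN), 0.874 (AZC) and 0.816 (PEG); spots are not independent replicates.

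The member and the lists were chosen with earlier results of these data known. Spots were named by gene symbol; where a symbol was only a locus number, the clone's description in the study was used. The text names MIPS, the tested spots of the inositol and starch lists, the 5 nearest named spots and the stress-marker genes. Other spots of the wall, photosynthesis and seed lists, and the named spots lowered under all 3 agents, were chosen for naming after their values were seen. A second clone that the study describes as MIPS has no symbol in the probe table and was not analysed here. The sizes, ranks and order given for MIPS are therefore those of clone AI941146 only. Alternatives covered background, normalization, filters, the model, dye orientation, single replicates and the t-test of the methods.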

Additional observations from a re-analysis of the deposited data

How the results depend on the processing

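The MIPS ratio stayed below 0 under each alternative that gave a value: 24 for TUN, 24 for AZC and 23 for PEG, of which 21, 22 and 21 were still called. The calls were lost with the scanner files of PEG replicate 1 as listed, at -0.82, -1.42 and -0.12 under TUN, AZC and PEG (limma, adjusted p = 0.761, 0.419 and 0.999), and in the methods' t-test over 4 hybridizations after Benjamini-Hochberg adjustment, at -0.82, -1.42 and -1.32 (adjusted p = 0.26, 0.0721 and 0.0981), though not before adjustment. The t-test treats dye swaps as replicates. The TUN call was also lost with the treated RNA only in Cy3, at -0.57 (limma, adjusted p = 0.0645). Leaving out each replicate gave -0.97 to -0.67 for TUN, -1.65 to -1.18 for AZC and -1.44 to -1.20 for PEG, all called; the highest adjusted p was 0.0481, for TUN without TUN replicate 2. The lone replicate was then assumed to vary like the other groups. Under the stricter filter MIPS was not tested under PEG. The cause of each lost call was not tested.

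AZC minus TUN kept its direction and stayed uncalled in 21 alternatives, between -0.83 and -0.36. PEG minus TUN was called only with the treated RNA in Cy3, at -0.88 (adjusted p = 0.0442), and turned to 0.70 with the files as listed, where PEG minus AZC was 1.30, uncalled. PEG minus AZC, 0.10, changed sign without being called under plain background subtraction (-0.062), no background correction (-0.12), the authors' ratios (-0.001) and the treated RNA only in Cy3 (-0.10), and ran from -0.14 to 0.33 when single replicates were left out. Replicate numbers did not pair the samples: their deviations correlated at 0.134 (TUN, AZC), -0.057 (TUN, PEG) and -0.0698 (AZC, PEG). With the replicate block, MIPS kept -0.82, -1.42 and -1.32 (adjusted p = 0.00595, 0.000144 and 0.000264), and no call on MIPS changed.

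The number of spots called lower, 135 under TUN, 257 under AZC and 305 under PEG, moved by over 1.5 times in several settings. With the files as listed it was 1, 16 and 0. In the methods' t-test after adjustment it was 1, 88 and 4, and unadjusted it was 321 for TUN and 512 for AZC. Treated RNA only in Cy3 gave 74 for TUN and 170 for AZC, and only in Cy5 144 for AZC. Without the differently quantified PEG hybridization it was 80 for TUN and 152 for AZC, median centring gave 618 for AZC, TUN fitted by itself 81, and the stricter filter 167 for PEG. Leaving out single replicates gave 107 to 132 for TUN, 104 to 301 for AZC and 110 to 351 for PEG; the counts of 104 and 153 came without AZC replicate 1 and AZC replicate 2, and that of 110 without PEG replicate 2. The phospholipase C spot changed sign under PEG with the files as listed (-0.034) and under TUN without TUN replicate 2 (0.28, against -0.72 without TUN replicate 1), uncalled each time. Of the 335 values for it and the starch synthase spots, 291 kept direction and call and 41 lost the call. With 1 MIPS spot, no comparison between MIPS spots was run. By Pearson r over the 12 hybridizations in place of distance, 3 of the 5 nearest spots were the same.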
